A study of Mus musculus with 20 samples.

Results

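The 8 genes described here encode enzymes that turn lanosterol, the first sterol ring system, into cholesterol: Cyp51, Tm7sf2, Msmo1, Nsdhl, Hsd17b7, Ebp, Sc5d and Dhcr7. They were chosen by name as enzymes of this route, with earlier results of these data known, from the 38924 genes of the liver FPKM table. All 8 were found and passed the filter on low values. Of these, 7 were found by symbol. Msmo1 is listed there under the older symbol Sc4mol and was matched by its gene identifier. Liver mRNA was sequenced from 20 male mice, 5 in each of 4 groups: wild type (WT) mice on control diet (NDWT), TSP-1 null mice on control diet (NDKO), WT mice on CDAHFD (HFWT) and TSP-1 null mice on CDAHFD (HFKO). CDAHFD is a diet rich in fat, without choline and limited in methionine, with L-amino acids in place of protein. It brings on steatohepatitis in mice. TSP-1 is thrombospondin-1, the product of Thbs1. The WT mice were C57BL/6J and the TSP-1 null mice carried a Thbs1 knockout in every cell. The mice were 5 weeks of age when bought, were acclimated for 1 week and then ate their diet for 12 weeks. The tissue was a right lobe of the liver, which the sources name differently (medial or lateral). FPKM, fragments per kilobase of gene scaled to the assigned fragments of the library, is a level per length. The length is that of the gene in the deposited table, such as 6144 bases for Msmo1 and 2328 for Sc5d. Whether the liver transcripts have these lengths was not tested. The order of levels between genes, their shares of a sum and which gene of a pair is higher rest on them. The fold of a gene or of a ratio between groups does not.

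Lanosterol carries methyl groups that cholesterol lacks and a double bond in another place of the ring system. CYP51 removes the first methyl group. The double bond that this leaves is reduced by TM7SF2 or by LBR, an inner nuclear membrane protein with the same activity. MSMO1, NSDHL and HSD17B7 then act in turn, more than once, to take off a pair of methyl groups: MSMO1 oxidises, NSDHL decarboxylates and HSD17B7 reduces the ketone that remains. EBP moves the ring double bond, SC5D adds another and DHCR7 removes one of them again. Transcription of most genes of this route is under the control of SREBP2, a factor released from the endoplasmic reticulum membrane when sterols are scarce.

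The genes lie on GRCm38 at the following positions, as the deposited table gives them. Cyp51 (ENSMUSG00000001467.4) is at chr5:4081145-4104746 on the minus strand and Tm7sf2 (ENSMUSG00000024799.8) at chr19:6062821-6068373 on the minus strand. Msmo1 (ENSMUSG00000031604.4) is at chr8:64718139-64733792, minus strand, and Hsd17b7 (ENSMUSG00000026675.6) at chr1:169949535-169969241, minus strand. Nsdhl (ENSMUSG00000031349.4, plus strand) and Ebp (ENSMUSG00000031168.8, minus strand) are both X-linked, at chrX:72918557-72958514 and chrX:8185329-8193512. Sc5d (ENSMUSG00000032018.7, minus strand) is at chr9:42254177-42264300 and Dhcr7 (ENSMUSG00000058454.8, plus strand) at chr7:143823145-143848410. Tm7sf2 shares 532 bases with the 3′ end of Vps51, a vesicle tethering gene on the same strand, so fragments in that stretch overlap both. How such fragments were counted, or whether they were left out, is not given in the sources used here. In Vps51 the level was 3.82 ± 0.318 FPKM in NDWT and 6.08 ± 1.14 in HFWT, and 4.43 ± 0.687 in NDKO and 6.20 ± 0.515 in HFKO (SD, n = 5), higher on CDAHFD where Tm7sf2 was lower. Exons of Cyp51 and of Akap9, a gene on the opposite strand, share 166 bases in GENCODE M21, and the spans given in the deposited table share 0. Whether strand was used in counting is not given in the sources used here.

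The windows from 250 bases before to 50 bases after the RefSeq transcription starts (GRCm38.p6) were searched on both strands for letters that are known binding motifs of factors acting on sterol genes. All 8 genes matched, in 10 windows, as Dhcr7 has 3 starts. The box CCAAT, bound by NF-Y, a usual partner of SREBP2, was found for 8 of 8 genes and in 8 of the 10 windows, against 37.4% of all 32851 windows. The Sp1 box GGGCGG was found in 9 of the 10 windows, against 35.7% of all. The form TCACNCCAC of the sterol regulatory element was found in 0 of the 10 windows, against 1.24% of all, which says only that these letters are not in these windows. The E-box CACGTG was found for 3 of 8 genes and in 3 of the 10 windows, against 7.15% of all. The cAMP response element TGACGTCA was found in 0 of the 10 windows, against 1.79% of all. No CCAAT overlapped a match to another of these motifs. A 30-base stretch around the CCAAT nearest upstream of a start is shown for each gene on its coding strand, so that genes that rose and genes that fell on CDAHFD can be set side by side. Capitals mark the box, which reads ATTGG where it lies on the opposite strand.
Cyp51, chr5:4104709-4104738: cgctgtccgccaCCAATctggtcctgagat
Tm7sf2, chr19:6067880-6067909: ctcccagcgctgATTGGctactgtgctggg
Msmo1, chr8:64733616-64733645: gagtggggcggaCCAATtacgacaggcgag
Nsdhl, chrX:72918489-72918518: aagactagcctcATTGGgcaaaatcatgct
Hsd17b7, chr1:169969200-169969229: ggccgagccttgATTGGtcgaggtgcgcgt
Ebp, chrX:8193550-8193579: atccctgtactgATTGGttcgtcagattcg
Sc5d, chr9:42264307-42264336: cgccggctgctgATTGGccggctgcctgca
Dhcr7, chr7:143830153-143830182: aatccacttccgATTGGtcgtctgtgacct
The box lay 12 bases upstream of the start in Hsd17b7 and 55 bases upstream in Msmo1 and Ebp, the closest and the farthest of the 8. For Dhcr7 it belongs to the most downstream of its 3 starts, and for Tm7sf2 the stretch lies inside the shared end of Vps51. These matches are letters in the reference sequence, and binding was not measured.

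Libraries held 15641545 to 23276322 fragments, and the fewest fragments behind a value of the 8 genes were 108, for Nsdhl in NDKO library 1. Thbs1, the targeted gene, went against the labels on control diet, at 0.197 ± 0.103 FPKM in NDWT and 1.30 ± 0.390 in NDKO, and lay at 4.62 ± 1.22 in HFWT and 3.44 ± 0.547 in HFKO (SD, n = 5), so genotypes below are those of the labels. The mitochondrial transfer RNA genes mt-Tg and mt-Tr held 0 fragments in all 10 libraries labelled TSP-1 null and at least 1 in all 10 labelled WT. Hepatocyte markers were present in every library, with a summed level of 25775 to 45410 FPKM over 8 genes, none of them at 0. On CDAHFD the summed markers of stellate cells and macrophages were higher: those of stellate cells (7 genes) ran from 8.30 to 13.1 FPKM in the 10 control diet libraries and from 97.8 to 244 in the 10 CDAHFD libraries, and those of macrophages (7 genes) from 122 to 204 and from 677 to 1496. The macrophage markers did not all rise. Clec4f fell from 67.5 to 29.7 FPKM in WT and from 69.3 to 40.7 in TSP-1 null mice, and was called lower in both. In whole liver, fewer cells of a type and less RNA per cell cannot be told apart, and the part of cell composition in the results below was not tested. HFWT library 5 stands apart by 5.55% of fragments on Gm26924 and Gm23935, against 0.176% to 1.98% in the other 19 libraries. HFKO library 4 stands apart in the 8 genes themselves, as described below.

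On control diet the 8 enzymes spanned a wide range. In NDWT the order of the group means ran from Sc5d at 84.0 ± 7.50 FPKM through Ebp at 55.8 ± 3.45, Tm7sf2 at 24.8 ± 4.18, Hsd17b7 at 12.1 ± 1.76, Cyp51 at 8.14 ± 2.57, Dhcr7 at 4.83 ± 0.738 and Nsdhl at 2.83 ± 0.614 to Msmo1 at 2.24 ± 0.777 (SD, n = 5). The ranges of neighbours in this order overlapped only for Hsd17b7 with Cyp51 and for Nsdhl with Msmo1. NDKO had the same order, with overlap also between Tm7sf2 and Hsd17b7 and between Cyp51 and Dhcr7, but not between Hsd17b7 and Cyp51. Sc5d and Ebp together made up most of the summed FPKM of the 8 genes, with 43.2% ± 3.32 and 28.7% ± 1.13 in NDWT.

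On CDAHFD the low enzymes of the control liver rose and some of the high ones fell. Cyp51, Msmo1, Nsdhl and Dhcr7 rose in both genotypes, Tm7sf2 fell in both, and Hsd17b7 passed the test in neither. In WT mice 6 of the 8 genes were differentially expressed (limma, FDR under 0.05 and log2FC beyond 0.58), 4 of them higher and 2 lower. Among all 14524 tested genes 48.8% were called in this comparison, 44.1% higher and 4.62% lower. In TSP-1 null mice 6 of the 8 were called, 5 higher and 1 lower, where 45.9% of all tested genes were called, 41.9% higher and 4% lower. The 4 and 5 higher genes of 8 thus stand near the share of all genes called higher. Without overlap between the diet groups, 5 genes were higher and 2 lower in WT mice, where 50.5% and 5.7% of all tested genes were, and 5 were higher and 1 lower in TSP-1 null mice, where 52.7% and 5.03% were. The median log2FC of all tested genes was 0.53 in WT mice and 0.50 in TSP-1 nulls, and the change of each of the 8 enzymes is also given relative to it. The 8 genes had a median log2FC of 1.04 in WT mice and 1.14 in TSP-1 nulls.

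**Figure D1:**
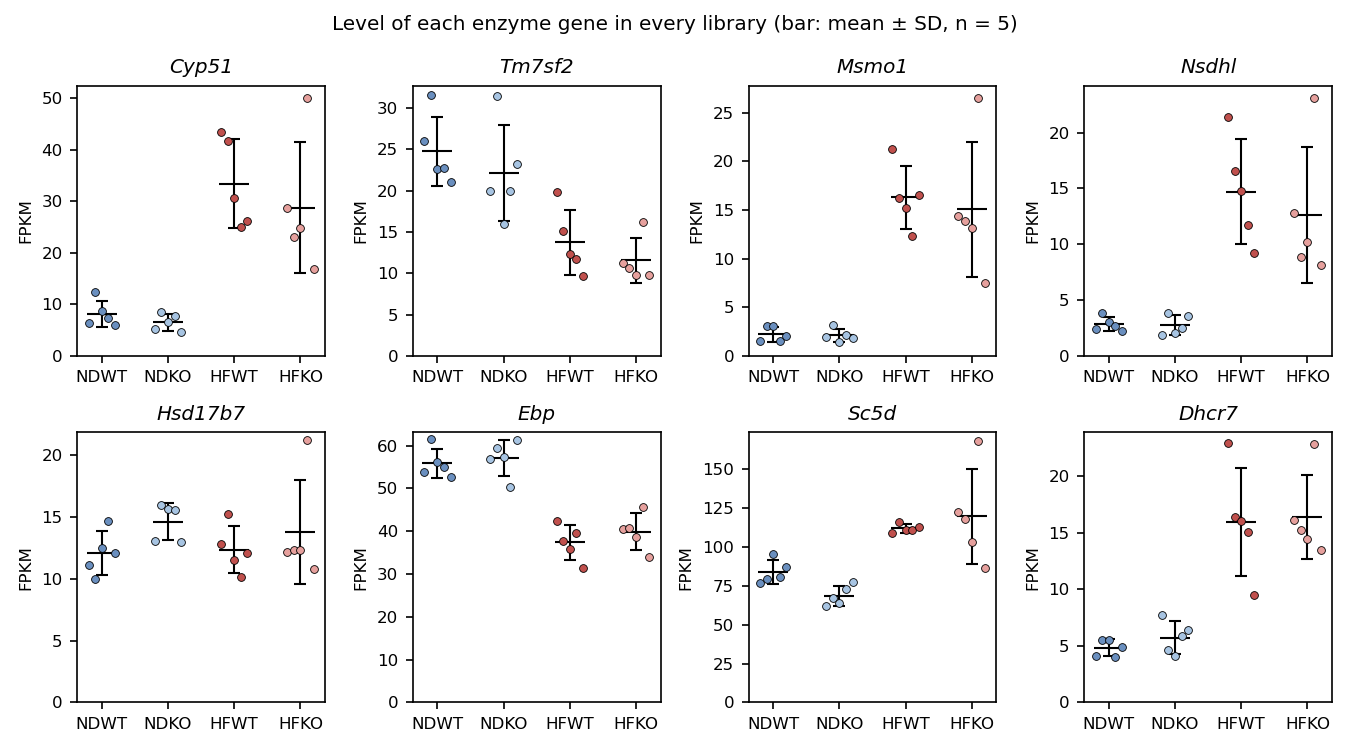
Level of the 8 enzyme genes in FPKM (y axis, linear from 0) in each of the 20 libraries, by group (x axis). Points are single mice in order of library number and bars are the mean and SD of 5 mice. Cyp51, Msmo1, Nsdhl and Dhcr7 are higher in all 10 CDAHFD libraries than in any control diet library of their genotype, Ebp is lower in all 10, and in HFKO the highest point is library 4 for every gene.

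Cyp51, the demethylase that opens the route, was low on control diet and among the higher members on CDAHFD. Its level was 6.32, 12.3, 8.76, 7.40 and 5.93 FPKM in the 5 NDWT libraries and 43.4, 41.6, 30.5, 25.0 and 26.2 in the 5 HFWT libraries. The groups did not overlap, and the lowest HFWT library was above the highest NDWT library. The means of 8.14 ± 2.57 and 33.4 ± 8.62 FPKM differed 4.10-fold (log2FC 2.03, SE 0.26, limma FDR 7.86e-07, relative to all genes 1.503). In TSP-1 null mice the level was 5.22, 8.56, 6.50, 7.76 and 4.63 FPKM on control diet and 28.7, 23.0, 24.8, 50.04 and 16.8 on CDAHFD, again without overlap (log2FC 2.06, FDR 7.59e-07, relative 1.56).

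Tm7sf2, one of the reductases that act after CYP51, moved the other way. It was at 26.0, 31.5, 22.6, 22.7 and 21.0 FPKM in NDWT and at 19.9, 15.1, 12.3, 11.8 and 9.63 in HFWT. Every HFWT library lay below every NDWT library (log2FC −0.88, SE 0.19, limma FDR 0.000419, relative −1.41). In NDKO the values were 20.0, 31.5, 15.9, 20.0 and 23.2 FPKM, and in HFKO 11.3, 10.7, 9.83, 16.2 and 9.74. Here the groups overlapped through HFKO library 4, which lay above the lowest NDKO library, and the fall passed the test (log2FC −0.92, FDR 0.000273, relative −1.42). Lbr, which encodes the other reductase of this step, rose instead, from 2.38 ± 0.388 to 5.30 ± 0.494 FPKM in WT mice and from 1.83 ± 0.134 to 4.51 ± 0.390 in TSP-1 null mice (log2FC relative to all genes 0.60 and 0.76). Its level per length stayed below that of Tm7sf2 in all 20 libraries, but the ratio of Lbr to Tm7sf2 went from 0.0567 to 0.125 over the 10 control diet libraries to 0.299 to 0.523 over the 10 CDAHFD libraries.

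The ratio of Cyp51 to Tm7sf2, consecutive enzymes, does not depend on how libraries are scaled against each other. It lay between 0.243 and 0.390 in NDWT and between 0.200 and 0.409 in NDKO, so Cyp51 was the lower of the pair in all 10 control diet libraries. It lay between 2.12 and 2.75 in HFWT and between 1.73 and 3.09 in HFKO, and Cyp51 was the higher of the pair in all 10 CDAHFD libraries. Which gene of the pair is higher rests on the gene lengths used, while the fold of the ratio between diets does not. This ratio was chosen after its values were seen and is given as a description.

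Of the 3 enzymes that remove the paired methyl groups, those of the first steps rose and that of the last did not pass the test. Msmo1, the oxidase, had the largest log2FC of the 8 genes. It was at 1.49, 3.03, 3.06, 1.52 and 2.09 FPKM in NDWT and at 21.3, 16.2, 15.2, 12.4 and 16.6 in HFWT, a 7.30-fold difference of the means (log2FC 2.86, SE 0.27, limma FDR 2.03e-08, relative 2.32). In TSP-1 null mice it was at 1.93, 3.15, 1.45, 2.17 and 1.81 FPKM on control diet and at 14.3, 13.9, 13.1, 26.5 and 7.48 on CDAHFD (log2FC 2.71, FDR 4.68e-08, relative 2.22). Both pairs of groups were well apart, with HFKO library 5 the lowest and HFKO library 4 the highest of the CDAHFD libraries.

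Nsdhl, the decarboxylase that follows, was at 2.41, 3.801, 3.03, 2.65 and 2.27 FPKM in NDWT and at 21.4, 16.5, 14.7, 11.7 and 9.21 in HFWT (log2FC 2.30, SE 0.27, limma FDR 3.11e-07, relative 1.77). In NDKO it was at 1.83, 3.84, 2.08, 2.52 and 3.61 FPKM and in HFKO at 12.8, 8.87, 10.2, 23.1 and 8.19 (log2FC 2.09, FDR 1.19e-06, relative 1.60). No CDAHFD library overlapped a control diet library of the same genotype. HFWT library 5, the library with the high share of Gm26924 and Gm23935, was the lowest of its group, and without it the log2FC in WT was at the top of its leave-one-out range of 2.15 to 2.46.

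Hsd17b7, the reductase that ends each round, did not pass the test in either genotype. Its levels ran from 9.93 to 14.7 FPKM in NDWT and from 10.1 to 15.2 in HFWT (log2FC 0.03, 95% confidence interval −0.28 to 0.35, limma FDR 0.855). In NDKO they ran from 12.9 to 15.9 FPKM and in HFKO from 10.8 to 21.2 (log2FC −0.12, interval −0.44 to 0.19, FDR 0.470). Relative to the median of all tested genes these changes were −0.50 and −0.62, and with median of ratios scaling between libraries Hsd17b7 was called lower in TSP-1 null mice (log2FC −0.66, FDR 0.00118) though not in WT mice (−0.52, FDR 0.00643). Msmo1 stood at 0.103 to 0.305 of the level of Hsd17b7 in NDWT and at 1.06 to 1.67 in HFWT, and at 0.0927 to 0.198 in NDKO and 0.692 to 1.249 in HFKO. The gene of this pair with the higher FPKM on control diet thus had the lower FPKM in 9 of the 10 CDAHFD libraries. For Nsdhl the switch was less complete. Its level was above that of Hsd17b7 in 4 of 5 HFWT and 2 of 5 HFKO libraries, and in no control diet library.

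Of the enzymes that rearrange the ring double bonds, Ebp fell in WT mice, Sc5d rose in TSP-1 null mice and Dhcr7 rose in both. Ebp, the isomerase, was at 53.9, 61.6, 56.2, 55.0 and 52.6 FPKM in NDWT and at 42.3, 37.8, 35.8, 39.6 and 31.5 in HFWT. All HFWT libraries lay below all NDWT libraries, and the log2FC of −0.58 (SE 0.08, limma FDR 3.77e-06, relative −1.11) stood just past the fold change threshold. In TSP-1 null mice Ebp was at 56.9, 59.3, 57.3, 50.4 and 61.4 FPKM on control diet and at 40.5, 40.8, 38.5, 45.8 and 34.0 on CDAHFD, without overlap. There the log2FC was −0.52 (FDR 1.70e-05, relative −1.01), on the other side of the fold change threshold. The WT call was lost without NDWT library 2 or 3 or HFWT library 3 or 5, with a log2FC of −0.55, −0.58, −0.57 and −0.52 in turn.

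Sc5d, the desaturase, had the highest level of the 8 genes in every library. It ran from 77.2 to 95.5 FPKM in NDWT and from 109 to 116 in HFWT, without overlap and with a log2FC below the threshold (0.42, SE 0.12, limma FDR 0.00411, relative −0.11). In TSP-1 null mice it ran from 61.9 to 77.3 FPKM on control diet and from 86.3 to 168 on CDAHFD and was called higher (log2FC 0.77, FDR 1.23e-05, relative 0.27). With median of ratios scaling the log2FC was −0.14 in WT mice and 0.24 in TSP-1 nulls, neither of them called (FDR 0.367 and 0.129). The direction of Sc5d in WT mice therefore depends on the scaling, while the ratio of Sc5d to Ebp went from 1.09 to 1.70 over the 10 control diet libraries to 2.54 to 3.68 over the 10 CDAHFD libraries.

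Dhcr7, the last reductase of the ring, was at 4.12, 5.54, 5.54, 4.02 and 4.94 FPKM in NDWT and at 22.9, 16.4, 16.1, 15.0 and 9.46 in HFWT (log2FC 1.66, SE 0.20, limma FDR 4.73e-07, relative 1.13). In NDKO it was at 7.70, 4.59, 4.07, 5.89 and 6.42 FPKM and in HFKO at 16.1, 15.2, 14.47, 22.8 and 13.5 (log2FC 1.51, FDR 1.77e-06, relative 1.01). The groups did not overlap in either genotype. HFWT library 5 was again the lowest of its group.

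**Figure D2:**
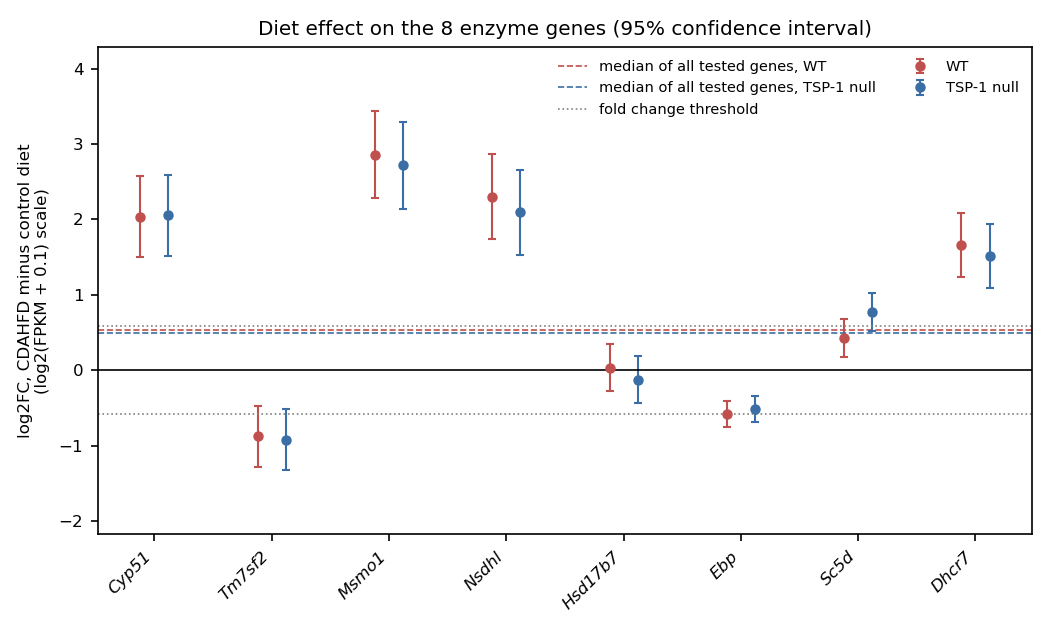
Diet effect on each enzyme gene as log2FC of CDAHFD over control diet on the log2(FPKM + 0.1) scale (y axis) with its 95% confidence interval from limma, for WT (red) and TSP-1 null mice (blue). Dashed lines give the median log2FC of all tested genes (0.53 and 0.50) and dotted lines the fold change threshold of 0.58 in both directions; Cyp51, Msmo1, Nsdhl and Dhcr7 lie above both, Sc5d lies around them and Tm7sf2, Hsd17b7 and Ebp lie below the medians.

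The spread of levels between the enzymes narrowed on CDAHFD. From the second member down to the eighth, the group means ran from 55.8 to 2.24 FPKM in NDWT and from 37.4 to 12.3 in HFWT. In HFWT the order was Sc5d, Ebp, Cyp51, Msmo1, Dhcr7, Nsdhl, Tm7sf2 and Hsd17b7, and the ranges of neighbours overlapped from Ebp to Cyp51 and all the way from Msmo1 to Hsd17b7. In HFKO all neighbours below Ebp overlapped, as did Ebp and Cyp51. Msmo1, the lowest on control diet, made up 1.13% ± 0.331 of the summed FPKM of the 8 genes in NDWT and 6.36% ± 0.901 in HFWT, Cyp51 4.14% ± 1.09 and 12.9% ± 2.01, and Ebp 28.7% ± 1.13 and 14.6% ± 1.23 (SD, n = 5). Sc5d kept 44.2% ± 4.73 in HFWT, close to its share in NDWT. In TSP-1 null mice its share was 38.3% ± 2.70 on control diet and 46.6% ± 1.47 on CDAHFD, without overlap.

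No enzyme was called between the genotypes on either diet. On control diet 0 of the 8 genes were called, where 4.77% of all tested genes were, and 1 of the 8 had an unadjusted p under 0.05. That gene was Sc5d, at 84.0 ± 7.50 FPKM in NDWT and 68.7 ± 6.36 in NDKO (log2FC −0.29, 95% confidence interval −0.54 to −0.04, limma FDR 0.121). The other 7 log2FCs ran from −0.30 for Cyp51 to 0.28 for Hsd17b7. On CDAHFD 0 of the 8 were called, where 0.496% of all tested genes were, and 0 had an unadjusted p under 0.05. The log2FCs ran from −0.28 for Cyp51 to 0.12 for Hsd17b7, and the interval for Cyp51 was −0.81 to 0.26, so larger differences than the one measured lie within it. limma on recovered fragments with voom weights also called 0 genes on both diets.

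The diet effect was not shown to differ between the genotypes for any of the 8 enzymes. The interaction, the genotype difference on CDAHFD less that on control diet, was called for 0 of 8 genes, where 0.647% of all tested genes were called, and 0 had an unadjusted p under 0.05, nor was any called with voom weights. It was largest in size for Sc5d (0.35, 95% confidence interval −0.01 to 0.71, limma FDR 0.343), so that the call of Sc5d in TSP-1 null mice alone was not shown to be a difference between the genotypes. For Ebp, called in WT mice alone, the interaction was 0.07 (interval −0.18 to 0.31, FDR 0.851). The intervals were widest for Msmo1 (−0.95 to 0.67) and Nsdhl (−1.01 to 0.59).

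Within the groups the levels of the 8 enzymes varied together from mouse to mouse on CDAHFD, and only some of them did so on control diet. After the mean of each group was taken off, the log2 level of each gene over the 20 libraries was compared with the mean of the other 7. Pearson's r was highest for Nsdhl (0.89, Spearman's rho 0.84), Cyp51 (0.83, rho 0.74), Msmo1 (0.81, rho 0.74) and Tm7sf2 (0.79, rho 0.75), lower for Ebp (0.72, rho 0.62) and Sc5d (0.66, rho 0.45), and lowest for Dhcr7 (0.58, rho 0.56) and Hsd17b7 (0.54, rho 0.32). Tm7sf2 and Ebp, which were lower on CDAHFD, thus went with the genes that were higher when mice of the same group were compared. Without the 2 libraries farthest from the median, HFKO library 4 being one of them for each gene, r was 0.84 for Nsdhl, 0.81 for Tm7sf2, 0.73 for Cyp51, 0.71 for Msmo1, 0.58 for Ebp, 0.51 for Sc5d, 0.45 for Dhcr7 and 0.21 for Hsd17b7. Over both diets pooled, the r of 0.54 for Hsd17b7 thus depended largely on those libraries. It was not taken again without them within each diet. In the 10 control diet libraries alone r was −0.28 for Hsd17b7, 0.07 for Dhcr7, 0.25 for Sc5d and 0.42 for Ebp. In the 10 CDAHFD libraries it was 0.83, 0.81, 0.78 and 0.82 in turn. For Cyp51, Tm7sf2, Nsdhl and Msmo1 it ran from 0.56 to 0.84 on control diet and from 0.86 to 0.97 on CDAHFD. These correlations describe libraries that share their scaling to total fragments.

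HFKO library 4 was above its group mean for 8 of 8 enzymes, by 0.65 on average on the log2 scale, and HFKO library 5 below it for 8 of 8, by 0.44. In HFWT, library 1 was above the group mean for 7 of 8 (mean deviation 0.35) and library 5 below it for 6 of 8 (mean deviation −0.29). HFKO library 4 had the highest summed hepatocyte markers of its group (45410 FPKM, against 34205 to 44447 in the other 4) and the lowest summed macrophage markers (677, against 902 to 1426). HFWT library 1, by contrast, had the lowest summed hepatocyte markers of its group (25775 FPKM, against 33200 to 37530) and the highest summed stellate markers (244, against 114 to 174). The part of cell composition in these deviations was not tested. Without HFKO library 4 the HFKO mean went from 28.7 to 23.35 FPKM for Cyp51, from 15.1 to 12.2 for Msmo1 and from 12.6 to 10.01 for Nsdhl, and 6 of the 8 genes were again called in TSP-1 null mice.

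**Figure D3:**
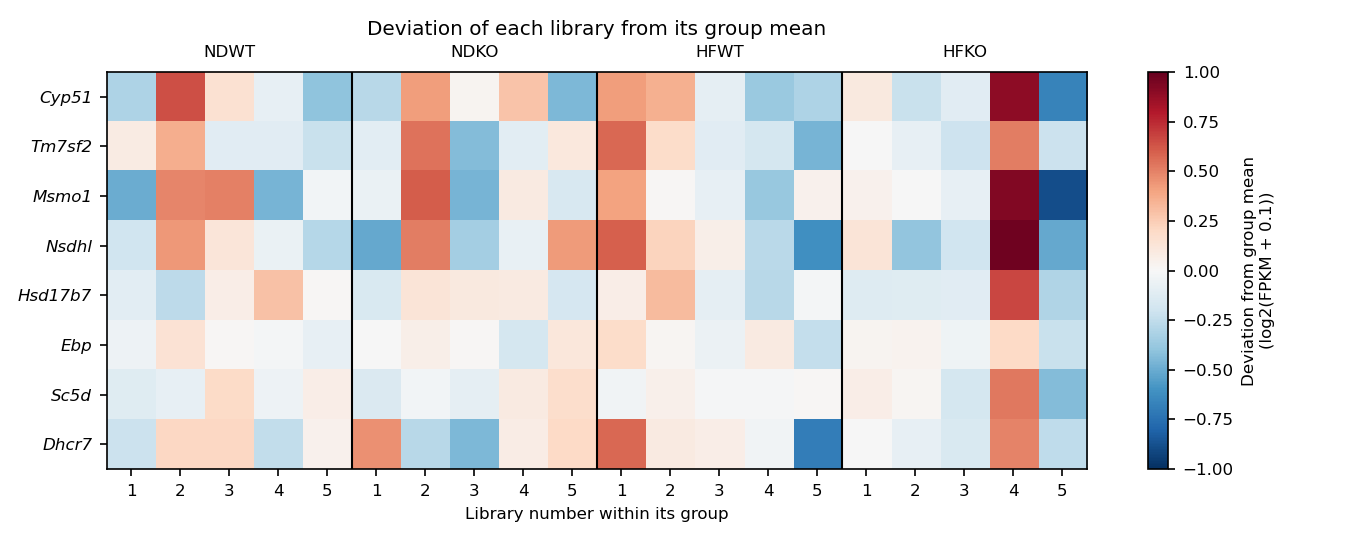
Deviation of each library from the mean of its group on the log2(FPKM + 0.1) scale (colour, red above and blue below) for the 8 enzyme genes (y axis) in the 20 libraries (x axis, numbered within their group). HFKO library 4 is red and HFKO library 5 blue for all 8 genes, and Hsd17b7 and Dhcr7 depart from the other genes in several control diet libraries.

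The genes whose within-group pattern was most like the mean of the 8 enzymes were others of the same route. Of 14516 other tested genes, the 9 with the highest Pearson's r over the 20 libraries were Fdps (0.95), Fdft1 (0.90), Pmvk (0.89), Mvd (0.89), Sqle (0.89), Acat2 (0.88), Insig1 (0.88), Hmgcs1 (0.87) and Idi1 (0.87). Of these, 8 belong to a list of 10 genes for steps from acetyl-CoA to lanosterol and Insig1 encodes a membrane protein that holds SREBP2 back. Without HFKO library 4 the 9 values lay between 0.80 for Acat2 and 0.94 for Fdps. An r above 0.5 was reached by 3.47% of the genes compared, and the median over them was 0.03. Mvk and Lss, the remaining genes of the list, ranked 16 and 12. Lbr was not close to this pattern (r = 0.43, rank 866).

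Upstream of lanosterol every gene of the list moved the same way with diet, unlike the 8 enzymes. All 10 were called higher in both genotypes, where 44.1% and 41.9% of all tested genes were. These calls are for FPKM as deposited, and this list was not tested again under the other scalings between libraries. Their median log2FC was 2.14 in WT mice and 2.21 in TSP-1 nulls, and 1.60 and 1.71 relative to all genes. Sqle, the squalene epoxidase, rose most, from 1.15 to 13.0 FPKM in WT and from 1.09 to 12.5 in TSP-1 null mice (log2FC 3.41 and 3.43, relative 2.88 and 2.94, limma FDR 6.30e-09 and 6.93e-09). Idi1, an isomerase of the isoprenoid steps, had a log2FC of 3.12 and 3.07 (relative 2.59 and 2.57). Acat2, the thiolase of the first step, had the lowest log2FC in WT (0.79, relative 0.26) and Pmvk, a kinase, in TSP-1 null mice (0.86, relative 0.36). Lss, which closes the ring to give lanosterol, rose from 1.57 to 4.33 FPKM and from 1.52 to 4.87 (relative log2FC 0.85 and 1.07). Neither a gene of this list nor Lbr was called lower.

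**Figure D4:**
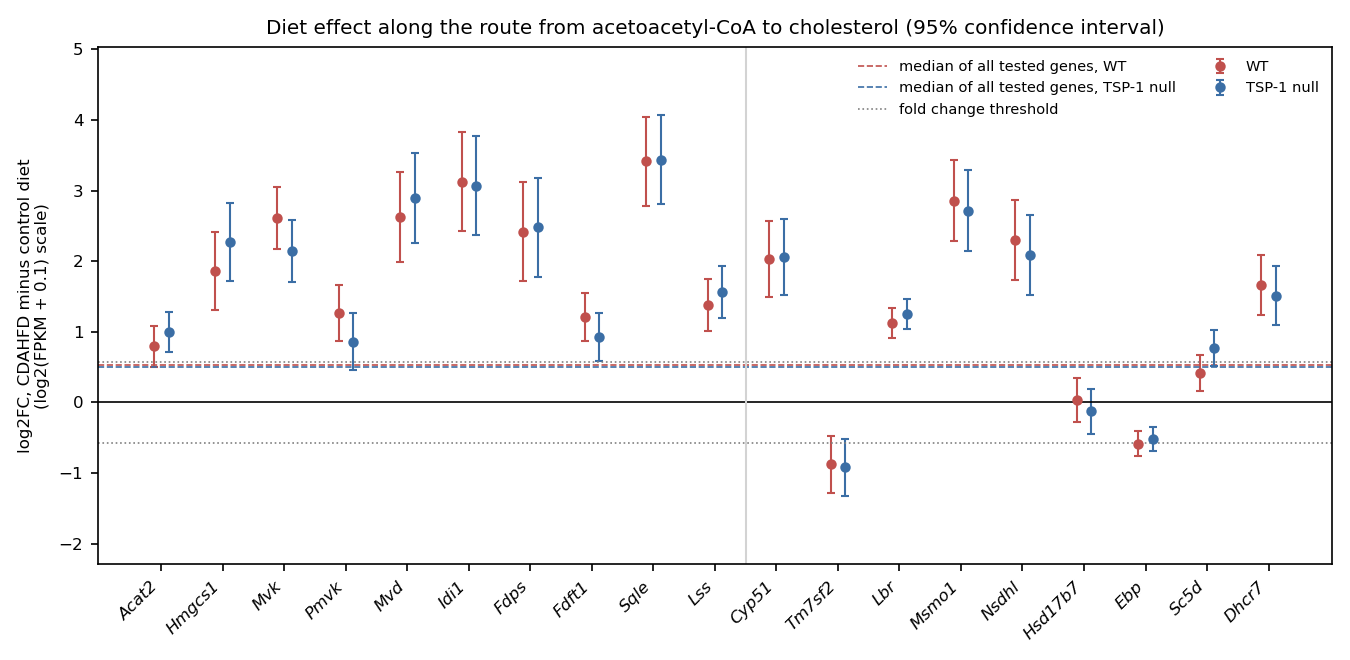
Diet effect along the route in pathway order (x axis; the grey line separates the steps up to lanosterol from those after it) as log2FC with its 95% confidence interval on the log2(FPKM + 0.1) scale (y axis), for WT (red) and TSP-1 null mice (blue). All 10 genes to the left lie above the fold change threshold, whereas Tm7sf2, Hsd17b7 and Ebp lie near or below 0 to the right.

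Among the electron partners and scaffold proteins listed for these enzymes, Por fell and Cyb5b rose in both genotypes, while Cyb5a was called in neither. Of 7 genes for electron donors and scaffold proteins, 2 were called higher and 1 lower in WT mice, where 44.1% and 4.62% of all tested genes were. In TSP-1 nulls 1 was higher and 1 lower, where 41.9% and 4% of all were. The median log2FC of the 7 relative to all genes was −0.49 in WT mice and −0.38 in TSP-1 nulls. Por, which hands electrons to CYP51, was lower on CDAHFD, from 128 to 82.6 FPKM in WT and from 225 to 111 in TSP-1 null mice (log2FC −0.65 and −1.003, relative −1.18 and −1.501, limma FDR 0.00855 and 0.000249), with overlap between the groups in both. Por was also higher in NDKO than in NDWT (log2FC 0.81, FDR 0.0142). Cyb5b, a cytochrome b5 of the outer mitochondrial membrane, rose (log2FC 0.69 and 1.004, relative 0.16 and 0.51), as did in WT 0610007P14Rik (0.85, relative 0.32, and in TSP-1 null mice 0.50, relative 0.0037), the mouse gene of the ERG28 scaffold of the demethylation enzymes. Pgrmc1, Pgrmc2 and Cyb5r3 had log2FCs between −0.23 and 0.22 and were not called. Cyb5a, another cytochrome b5, was at 353 FPKM in NDWT and 349 in HFWT (log2FC −0.02, limma FDR 0.836). In TSP-1 null mice it was at 351 FPKM on control diet and 292 on CDAHFD, without overlap (log2FC −0.27, FDR 0.00137).

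Of 10 genes of SREBP2 control and the LDL receptor axis, 5 were called higher and 1 lower in WT mice, and 6 and 1 in TSP-1 null mice. These counts stand against 44.1% higher and 4.62% lower among all tested genes in WT mice and 41.9% and 4% in TSP-1 nulls, and the median log2FC of the list relative to all genes was 0.11 and 0.35. Srebf2, which encodes SREBP2, rose from 10.03 to 27.2 FPKM in WT and from 9.65 to 27.1 in TSP-1 null mice (log2FC 1.41 and 1.499, relative 0.88 and 1.002, limma FDR 6.03e-08 and 3.00e-08). Srebf1, which encodes the related factor SREBP1, had a log2FC of 1.498 and 1.24 (relative 0.97 and 0.74) and Insig1 of 0.94 and 1.70 (relative 0.41 and 1.21). Mylip, a ligase acting on the LDL receptor, had a log2FC of 0.79 and 0.61, of which 0.26 and 0.11 were beyond the median of all genes. Insig2, the second retention protein, fell (−0.70 and −1.13, relative −1.23 and −1.63, FDR 0.000225 and 8.72e-07). Mbtps2, a protease that releases SREBP2, was called higher in WT mice (0.78, relative 0.25) and not in TSP-1 nulls (0.58, relative 0.08), and no gene of the list had a called interaction. Of 13 genes of sterol efflux, esterification and LXR response, 7 were called higher in WT mice, and 5 higher and 1 lower in TSP-1 null mice, near the 44.1% and 41.9% of all tested genes called higher. The median log2FC of the 13 relative to all genes was 0.25 in WT mice and −0.24 in TSP-1 nulls. The lower gene, named after its values were seen, was Cyp27a1, a sterol hydroxylase of bile acid synthesis (log2FC −0.68, relative −1.18, FDR 3.66e-05). Soat1, which esterifies cholesterol and is abundant in macrophages, rose most (log2FC 2.90 and 2.61, relative 2.37 and 2.11), ahead of Abcg1 (1.89 and 1.72, relative 1.36 and 1.23) and Npc2 (1.67 and 1.41, relative 1.14 and 0.91). Of the 7 macrophage markers 6 were also called higher and 1 lower in both genotypes, and the part of macrophages in this was not tested. The within-group r with the 8 enzymes went both ways in this list, at −0.68 for Soat1, 0.66 for Soat2 and 0.68 for Cyp27a1.

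**Figure D5:**
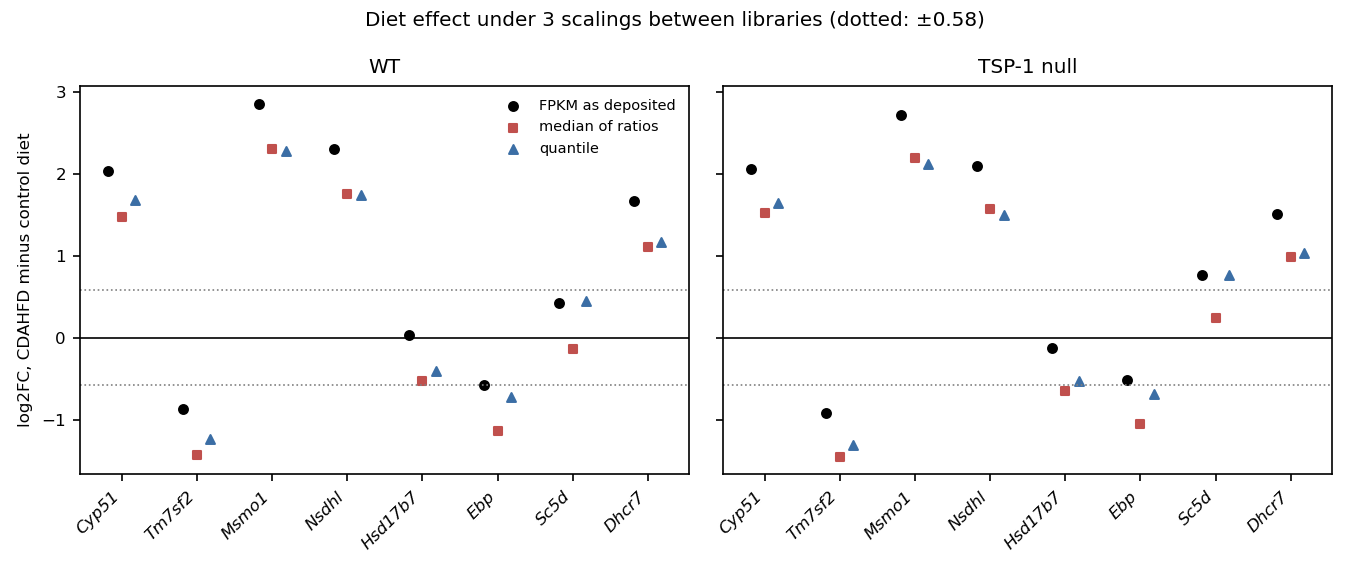
Diet effect on the 8 enzyme genes as log2FC of CDAHFD over control diet (y axis) for FPKM as deposited (black circles), after median of ratios scaling (red squares) and after quantile normalization (blue triangles), in WT (left) and TSP-1 null mice (right), with dotted lines at 0.58 in both directions. Cyp51, Msmo1, Nsdhl and Dhcr7 stay above the upper line and Tm7sf2 below the lower line in all, while Hsd17b7 goes below 0 and Sc5d moves across the upper line or 0.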

How the data were processed

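Liver RNA was sequenced as directional poly(A) libraries from 20 mice, 5 per group, and grouped by the GEO labels. The replicates are separate mice. The authors deposited FPKM values per gene, made with the QuickRNASeq pipeline. The submitters' processing notes name STAR 2.5.2 and featureCounts of Subread 1.5.1. The notes list a human genome build, but the table's coordinates are mouse GRCm38: 37607 of its 38924 gene identifiers are in GENCODE M21, of which 99.8% overlap in position. Fragments per gene were recovered from FPKM and gene length, and 100% of the values that could be checked (FPKM rounding under 0.25 fragments) lay within that rounding plus 0.02 fragments of a whole number.

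limma 3.58.1 (R 4.3.3) was fitted to log2(FPKM + 0.1) of 14524 genes above 0.5 FPKM in at least 5 libraries, with all 20 libraries in 1 fit and trended eBayes. Genes were called at a Benjamini-Hochberg FDR under 0.05, over all tested genes, and a log2FC beyond 0.58 in either direction. Fold changes are on the log2(FPKM + 0.1) scale, which understates those of low genes. Data of 14524 genes were simulated from NDWT means with normal noise. Changes were added to a small set of genes, as many up as down, in the CDAHFD libraries. In the WT diet comparison 91% of genes with a log2 change of 1 and 90% of those with a change of 2 were recovered, with 6 false calls. The real comparison had a median log2FC of 0.53 over all tested genes. The simulation held no such shift, so it cannot tell how calls fare under it. Python 3.11.15 with pandas 2.3.3, numpy 2.4.6, scipy 1.17.1 and matplotlib 3.10.9 was used for summaries and plots.

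Named genes were the 8 enzymes, Thbs1, up to 6 genes per list with the lowest FDR in the WT diet comparison, the genes of the upstream and sterol end step lists, and the 9 genes closest to the enzymes within groups. Some genes of the route and its control are not reported here. Outside this rule, and chosen after values were seen, are Cyp27a1, Cyb5a, the overlapping neighbours Vps51 and Akap9, and the genes that describe the libraries (mt-Tg, mt-Tr, Gm26924 and Gm23935). The 8 enzymes, lists and tests were chosen with earlier results of these data known. Other pseudocounts, filters, scalings, variance models, fits of only the groups compared, no fold change threshold, a replicate block and leaving out each library were tried, and limma with voom weights on the recovered fragments was added after seeing the data. Promoter windows were taken from RefSeq.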

Additional observations from a re-analysis of the deposited data

Results flagged for a closer look

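HFKO library 4 lay far above the other 4 libraries of its group for 3 genes: Tm7sf2 at 16.2 FPKM, Hsd17b7 at 21.2 FPKM and Dhcr7 at 22.8 FPKM. The gap to the next library took up a share of the group's range of 0.760, 0.857 and 0.719 in turn, above Dixon's critical value of 0.71 for 5 libraries. In all, 32 sets of 5 libraries (8 genes in 4 groups) were examined, of which chance alone marks about 1 in 20, and the 8 genes of a library are not independent. Without this library the HFKO mean was 10.4 ± 0.739 FPKM for Tm7sf2, 11.9 ± 0.722 for Hsd17b7 and 14.8 ± 1.11 for Dhcr7 (SD, n = 4). The cause was not tested.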

How the results depend on the processing

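The number of the 8 genes called was 6 in WT mice and 6 in TSP-1 null mice, and 0 for genotype on either diet and for the interaction. Leaving out single libraries gave 5 to 6 calls in WT mice, 6 in TSP-1 nulls and 0 elsewhere, and every other alternative run stayed within 1.5 times these counts. Of the single log2FCs under the other alternatives, 496 kept direction and side of the threshold, 9 turned direction, 3 passed the threshold and 2 lost it. With no fold change threshold, Sc5d in WT mice (0.42) and Ebp in TSP-1 nulls (−0.52) were called as well.

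Scaling between libraries mattered most. Over all tested genes the WT diet comparison had 6412 higher and 671 lower genes, against 3299 and 2242 with median of ratios scaling and 2514 and 2562 with quantile normalization. In TSP-1 nulls 6088 and 581 became 3225 and 1980, or 2421 and 2186. The WT diet log2FC of Hsd17b7 turned to −0.52 with median of ratios and −0.41 with quantile normalization, and that of Sc5d to −0.14 with median of ratios. The control diet genotype log2FC turned to 0.0050 and 0.0049 for Msmo1 and to 0.0112 and 0.0182 for Nsdhl with these scalings. The Cyp51 interaction turned to −0.0013 with a pseudocount of 1 and −0.0431 with quantile normalization. In TSP-1 nulls the call of Sc5d was lost with median of ratios (0.24), where Hsd17b7 (−0.66) and Ebp (−1.05) were called lower, as was Ebp with quantile normalization (−0.69). Ebp in WT mice lost its call with a pseudocount of 1 (−0.57). The cause was not tested.

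When single libraries were left out, the log2FCs that turned direction were all uncalled ones. For the WT diet effect of Hsd17b7 they ran from −0.0464 to 0.1054. For genotype on control diet they ran from −0.2186 to 0.058 for Msmo1 and from −0.1892 to 0.0675 for Nsdhl. On CDAHFD they ran from −0.4399 to 0.0127 for Msmo1, −0.0431 to 0.2021 for Hsd17b7, −0.0721 to 0.169 for Sc5d and −0.105 to 0.2117 for Dhcr7. For the interaction they ran from −0.2026 to 0.1889 for Cyp51, −0.1717 to 0.0996 for Tm7sf2 and −0.3727 to 0.0799 for Msmo1.

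Libraries of different groups share only a replicate number: deviations of same-numbered libraries correlated between −0.133 and 0.081. With the replicate number as a block, 6, 6, 0, 0 and 0 of the 8 genes were called in the 5 comparisons. Depth was not a limit for these genes, as each value rested on at least 108 fragments.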
